A study of Mus musculus with 38 samples.

Results

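The 37 genes described here encode the nuclear receptor PPAR-alpha, regulators that act with it, and the transporters and enzymes of hepatic fatty acid oxidation that are known as its targets. They were chosen by symbol, and all 37 were found among the 21644 genes of both expression tables, 1 for each of 2 mouse liver systems. In the first system every animal, WT included, carried R26-rtTA, a doxycycline-activated transactivator at a broadly expressed locus. Its 4 groups were R26-rtTA;WT (4 libraries), R26-rtTA;tet-Myc (4), R26-rtTA;tet-YAP (6) and R26-rtTA;tet-Myc;tet-YAP (3), the transgenic groups induced for 2 days with doxycycline in the food. In the second system every animal carried LAP-tTA, a transactivator driven by the hepatocyte-active LAP promoter. Its groups were LAP-tTA;WT (3 libraries), and LAP-tTA;tet-Myc (3), LAP-tTA;tet-YAP (4) and LAP-tTA;tet-Myc;tet-YAP (3) at 4 weeks of induction, with 8 tumour nodules from LAP-tTA;tet-YAP mice, for which no time is labelled. By the study's methods, the tet-YAP mice carry at Col1A1 a mutant YAP in which a serine is replaced by alanine, a form known to escape inhibition by the Hippo kinases, and so do all tet-Myc;tet-YAP mice and the mice that gave the tumours. The labels give neither age nor sex, no induction time for WT, and do not say whether each library is from its own animal, so the p-values below reflect spread among libraries that may be technical. Whole liver was sequenced, so lower RNA per hepatocyte and fewer hepatocytes cannot be told apart in any value below.

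PPAR-alpha pairs with the receptor RXR and is activated by fatty acids. In the fasted liver it raises the genes that carry fatty acids into mitochondria and peroxisomes, oxidize them there and turn the products into ketone bodies. Its most inducible mouse targets include the Cyp4a omega-hydroxylases and the acyl-CoA thioesterases, while most core enzymes of mitochondrial oxidation are expressed at high level in every state.

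The libraries held 5730000 to 13140000 reads in genes, and values are in RPKM, which divides reads by gene length in kb and by the mapped reads of the library. Abundant genes met a ceiling. Across the libraries, the gene ranked sixth by level had 1447 to 1721 reads per kb, which is 28.7 to 67.3 RPKM and is lower in deeper libraries. By Xist and Y-linked genes, 17 of the 38 libraries had a female pattern, among them R26 tet-Myc 2 and 3, R26 tet-Myc/YAP 3, LAP WT 2 and 3, LAP tet-Myc 3, LAP tet-YAP 2, LAP tet-Myc/YAP 1 and 2 and all 8 tumours. All R26 WT and R26 tet-YAP libraries had a male pattern. In R26, 6 pairs of libraries of the same group differed by 0.972 to 1.32 times the counting variance, against 1.73 to 4.58 times for all other R26 pairs of 1 group: libraries 1 with 4 and 2 with 3 of WT, 1 with 4, 2 with 5 and 3 with 6 of tet-YAP, and 1 with 2 of tet-Myc/YAP. Each pair still differed over all genes (mean chi-square per gene of at least 2.70). That value cannot show whether the libraries of a pair came from different animals. The libraries were kept apart, so the standard errors and adjusted p-values below count those of a pair as independent. Counts with each pair averaged are given beside them. In LAP, 4 pairs were the closest (1.60 to 1.91 times, against at least 2.497 for the others): libraries 1 with 2 and 3 with 4 of tet-YAP, 2 with 3 of WT and 1 with 2 of tet-Myc. The pair 1 and 2 of tet-YAP holds 1 library of each sex pattern. The rows Myc and Yap1 do not separate transgene from resident gene. Yap1 was 4.84 to 5.85 RPKM in R26 tet-YAP and 4.79 to 5.20 in WT, whereas the YAP targets Ctgf and Cyr61 were above the WT range in all 6 tet-YAP libraries. In R26 tet-Myc/YAP, Cyr61 was above the WT range in all 3 libraries, but Ctgf was 12.7, 9.48 and 1.11 RPKM, library 3 lying below the WT range of 1.60 to 1.93. Myc was 0.609 RPKM in R26 tet-Myc 4, within the WT range of 0.522 to 0.767, and in LAP tet-Myc it overlapped WT. In LAP tet-Myc/YAP, Myc was 1.47 to 2.81 RPKM, inside the LAP WT range of 0.630 to 3.20. All 12 hepatocyte markers examined had a mean of at least 6.89 RPKM in every group, tumours included.

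Differences were tested with limma on log2(RPKM + 0.5) over all tested genes of a system (11263 in R26, 12591 in LAP), and a gene was called at an adjusted p under 0.05 with a log2 difference of at least 0.5. Differences below are on that log2 scale, which understates the change of low genes, and ± is the standard error of the fit. All 37 genes passed the filter of 1 RPKM in 3 libraries in both tables.

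At 2 days the genes that changed in tet-YAP included 3 of 4 omega-hydroxylases, all 4 thioesterases and 2 of 3 secreted or surface targets, with 1 regulator, 1 gene of uptake and 1 of the carnitine shuttle. In R26 tet-YAP, 12 of the 37 genes were higher than in WT and 0 were lower, where 6.19% of all tested genes were called, 2% higher and 4.19% lower. The 12 were Ppargc1a, Crat, Cd36, Cyp4a10, Cyp4a14, Cyp4a31, Acot1, Acot2, Acot3, Acot4, Fgf21 and Vnn1, and the tet-YAP and WT libraries did not overlap for any of them. These genes were picked by their call, which favors separate ranges, and no share of all genes without overlap is given. With limma, 15 members were higher and 4 lower at an unadjusted p under 0.05. No share of all genes at that unadjusted threshold is given, here or for the unadjusted counts below. The percentages printed beside those counts are for the adjusted call. When each close pair was replaced by its mean (2 WT and 3 tet-YAP values remain), 0 of the 12 were called, at nearly the same log2 differences, and 25 of all 11263 genes were. In R26 tet-Myc/YAP, 12 genes were higher and 4 lower, against 42.2% of all genes, 4.61% higher and 37.6% lower. The 4 lower genes were Acadvl, Acads, Acaa1a and Creb3l3. The median difference over all genes was -0.39 in that comparison and -0.11 over the 37 genes. With libraries rescaled by their median ratio the split became 13 higher and 0 lower, and with close pairs averaged it was 6 and 3. Rescaled to a common ceiling (a setting added after seeing the data) it was 12 and 0, and 1397 and 646 for all genes. Libraries 1 and 2 had RPKM denominators of 45370000 and 45380000 reads and ceilings of 34.3 and 33.8 RPKM. Library 3 had 25990000 reads and 55.7 RPKM, and WT 26990000 to 29900000 reads and 52.9 to 62.3 RPKM. The part of depth in these calls was not tested. In R26 tet-Myc, 3 genes (Cyp4a14, Acot2, Acot4) were higher and 0 lower, against 4.87% of all genes, 2.17% higher and 2.7% lower, and at an unadjusted p under 0.05 limma gave 6 higher and 5 lower. Those 3 calls varied with the female-pattern libraries: without tet-Myc 2 the count was 1 higher, without tet-Myc 3 it was 1 lower, and in the male-pattern libraries alone it was 0 higher and 4 lower. Leaving out any single WT library also left 1 higher, and leaving out tet-Myc 1 gave 5 higher.

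In LAP most of the 37 genes were called lower in tet-Myc/YAP at 4 weeks and in tumours, whose time is not labelled. Induction time and transactivator differ together between R26 and LAP, so their parts cannot be told apart. Depth differed by group, with RPKM denominators of 23680000 to 37680000 reads in LAP WT and 41160000 to 56810000 in tumours. The ceiling (sixth-highest gene) was 43.0 to 67.3 RPKM in WT, highest in WT 1, and 28.7 to 38.6 in tumours. Of 15 members under 25% of it in WT, 1 was lower and 3 higher in tet-YAP, and 5 and 3 in tumours. From 25% to 50%, 8 and 12 of 12 were lower, and above that 5 and 10 of 10, with 0 higher. The part of depth in these falls was not tested. In LAP tet-YAP, 3 genes were higher (Acot2, Vnn1, Cd36) and 14 lower, where 11.5% of all genes were called higher and 15.3% lower. In LAP tet-Myc/YAP, 5 were higher and 21 lower, against 22.5% and 14% of all genes, with a median of -0.70 over the 37 genes and 0.11 over all genes. In the tumours, 3 were higher and 27 lower, against 52.8% of all genes, 21.5% higher and 31.3% lower, with medians of -1.14 and -0.14. In LAP tet-Myc, 0 of 37 were called by limma, against 0.0238% of all genes (0.0159% higher and 0.00794% lower), while 2 were higher and 4 lower at an unadjusted p under 0.05. With every library rescaled to a common ceiling (an added setting, chosen after seeing the data), the counts were 5 higher and 0 lower in LAP tet-YAP, 6 and 13 in LAP tet-Myc/YAP, and 6 and 16 in tumours. That rescaling moved the median of all genes from -0.10 to 0.31, from 0.11 to 0.40 and from -0.14 to 0.50. The medians of the 37 genes became -0.14, -0.35 and -0.40. Of all 12591 genes, 3412 were then higher and 127 lower in LAP tet-YAP. In LAP tet-Myc/YAP it was 4715 and 842, and in tumours 6141 and 1202. With the 4 close pairs of LAP averaged (also added after seeing the data, leaving 2 tet-YAP and 2 WT values), the tet-YAP count was 2 higher (Acot2, Cd36) and 3 lower (Acaa1a, Acadvl, Decr2), that of tet-Myc/YAP 4 and 19 (Pdk4, Acads and Decr1 being lost) and that of tumours 3 and 27. In female-pattern libraries alone the tet-YAP count was 0, with 1 tet-YAP library in the fit. The tet-YAP count also moved to 2 higher and 5 lower without WT 1, and to 3 higher with 8, 8 and 7 lower without WT 2, tet-YAP 3 and tet-YAP 4.

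**Figure D1:**
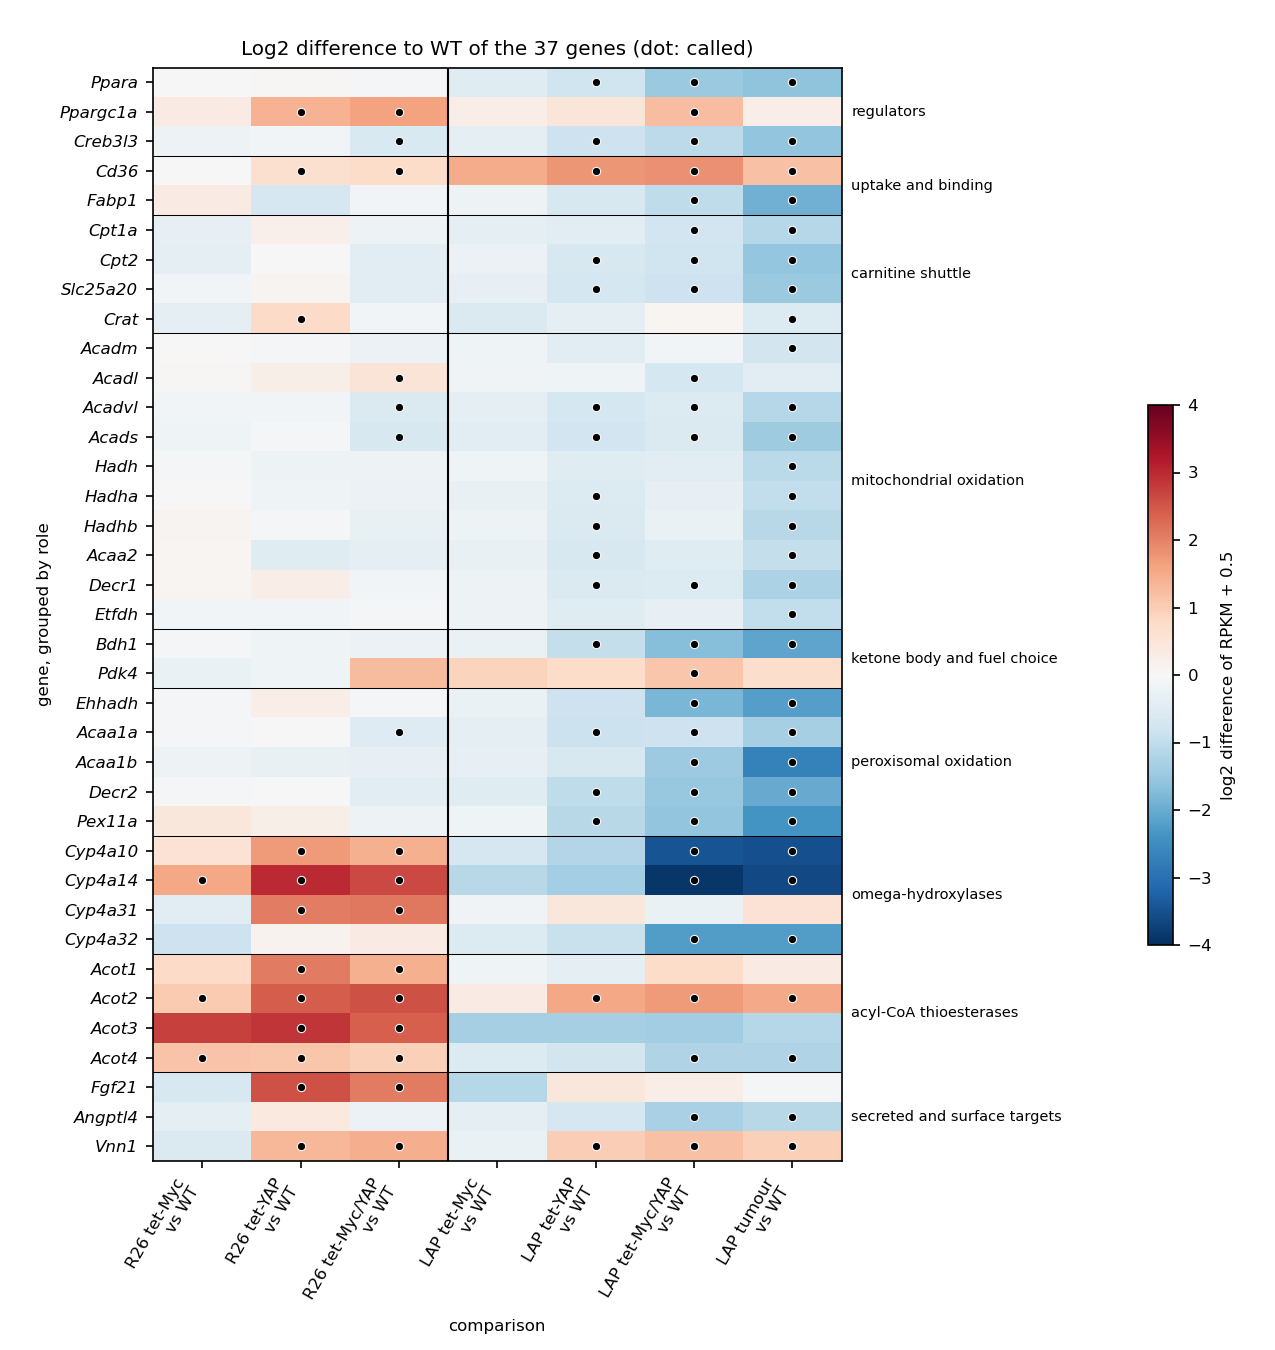
Log2 difference to the WT of the same system (color, RPKM + 0.5) for the 37 genes, grouped by role, in 7 comparisons, with a dot where the gene was called. The R26 tet-YAP column holds 12 calls, all higher, and the LAP tumour column holds 27 lower calls.

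The receptor itself was not called in R26 as deposited and was lower in 3 of the 4 LAP groups. Ppara was 20.9, 20.9, 21.4 and 22.2 RPKM in the 4 R26 WT libraries, 20.4, 17.9, 23.3 and 23.5 RPKM in tet-Myc, 18.6 to 25.1 RPKM (median 23.3) in tet-YAP and 18.8, 18.1 and 23.6 RPKM in tet-Myc/YAP. All R26 groups overlapped. The tet-Myc/YAP difference of -0.09 changed sign with the scaling, to 0.34 under the median ratio and 0.41 at a common ceiling (neither called) and 0.51 after quantile normalization (called), and the tet-YAP difference was 0.05 ± 0.11 (SE, adjusted p = 0.779). In LAP, Ppara was 29.7, 27.5 and 22.7 RPKM in WT, 19.2, 16.8 and 19.9 RPKM in tet-Myc, 19.7, 18.4, 12.2 and 11.7 RPKM in tet-YAP, 9.28, 8.25 and 9.72 RPKM in tet-Myc/YAP and 5.88 to 14.5 RPKM (median 7.56) in tumours. No induced library reached the lowest WT library. The tet-Myc difference of -0.50 ± 0.25 (SE, adjusted p = 0.401) was not called, and those of tet-YAP, tet-Myc/YAP and tumours were -0.79 ± 0.24 (SE, adjusted p = 0.0176), -1.49 ± 0.25 (SE, adjusted p = 0.000129) and -1.62 ± 0.21 (SE, adjusted p = 2.33e-06). At a common ceiling these became -0.28 (not called), -1.13 and -0.88 (both called). The tet-YAP call was also lost without WT 1, WT 2, tet-YAP 3 or tet-YAP 4, at differences of -0.67 to -0.76.

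Ppargc1a, the fasting-induced coactivator of PPAR-alpha and of mitochondrial genes, rose from a low level in both R26 groups with tet-YAP. It was 0.716, 0.971, 0.873 and 0.586 RPKM in WT, 0.570, 1.27, 1.83 and 1.02 RPKM in tet-Myc, 2.56 to 3.05 RPKM (median 2.90) in tet-YAP and 3.96, 3.91 and 2.47 RPKM in tet-Myc/YAP. Every tet-YAP and tet-Myc/YAP library lay above every WT library, with differences of 1.39 ± 0.17 (SE, adjusted p = 9.65e-05) and 1.60 ± 0.20 (SE, adjusted p = 6.24e-06). LAP libraries had 1.29, 1.97 and 1.57 RPKM in WT, 1.85, 1.51 and 2.85 RPKM in tet-Myc, 2.36, 2.37, 2.38 and 2.48 RPKM in tet-YAP, 3.96, 5.52 and 3.91 RPKM in tet-Myc/YAP and 1.04 to 3.26 RPKM (median 2.02) in tumours. In LAP the call was made in tet-Myc/YAP alone (1.23 ± 0.26, SE, adjusted p = 0.000974), and the tumours spanned the WT range. At a common ceiling tet-YAP (0.84) and tumours (0.83) were called higher as well. The difference of LAP tet-Myc/YAP to tet-YAP was itself called (0.76 ± 0.24, SE, adjusted p = 0.0227), though not without tet-Myc/YAP 1 (0.83) or 2 (0.61). It was also lost in 6 of 10 other settings, at 0.55 to 0.85: median-ratio and quantile scaling, the sex covariate, female-pattern libraries (1 tet-YAP library), averaged close pairs and the common ceiling.

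Creb3l3, a liver transcription factor of the fasting response that cooperates with PPAR-alpha, fell in LAP tet-YAP (-0.83 ± 0.21, SE, adjusted p = 0.00739), LAP tet-Myc/YAP (-1.06 ± 0.22, SE, adjusted p = 0.000987) and tumours (-1.58 ± 0.19, SE, adjusted p = 8.01e-07). Its mean was 29.5 ± 5.45 RPKM (SD, n = 3) in LAP WT and 9.61 ± 1.95 RPKM (SD, n = 8) in tumours, without overlap. The LAP tet-YAP call was lost without WT 1 (-0.70), after quantile normalization, with averaged close pairs and at a common ceiling (-0.32). In R26 tet-Myc/YAP the Creb3l3 difference of -0.62 ± 0.11 (SE, adjusted p = 0.000109) was 0.00131 and not called after quantile normalization. That call was also lost under median-ratio scaling and at a common ceiling (-0.13). Of 16 other regulators of this pathway, such as the RXR genes, lipins and corepressors, 15 were tested in LAP, and R26 tet-Myc/YAP had 1 called higher and 4 lower (of all genes, 4.61% and 37.6%), and the tumours 0 higher and 9 lower (21.5% and 31.3%). Nr1h3, which encodes the oxysterol receptor LXR-alpha, and Rxra, the main hepatic partner of PPAR-alpha, led the tumour falls by adjusted p, with differences of -1.55 and -1.29. Lpin1, a lipin that coactivates PPAR-alpha, differed by -2.05 in LAP tet-YAP, -2.70 in LAP tet-Myc/YAP and -2.29 in tumours, all called.

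PPAR-alpha with RXR binds repeats of AGGTCA spaced by 1 base, and the promoter windows of the members were searched for that pattern (AGGTCA, any base, AGGTCA) on both strands with up to 2 mismatches over its 12 fixed bases. RefSeq (build GRCm38.p6) had windows of 300 bases for 29 of the 37 genes (32 windows, from 250 bases before the start, the base before it being -1). Matches lay in windows of 5 genes, 15.62% of the members' windows against 3.86% of 32851 windows of all genes. A match is a description of letters, not a bound site. The 3 members that hold a match and were called in most comparisons with WT are shown, with the 250 bases before the start in gene direction and the match in capitals. They lie at chr10:81092592-81092841 (minus strand, Creb3l3), chr5:17835897-17836146 (minus strand, Cd36) and chr12:84038129-84038378 (plus strand, Acot4).
Creb3l3: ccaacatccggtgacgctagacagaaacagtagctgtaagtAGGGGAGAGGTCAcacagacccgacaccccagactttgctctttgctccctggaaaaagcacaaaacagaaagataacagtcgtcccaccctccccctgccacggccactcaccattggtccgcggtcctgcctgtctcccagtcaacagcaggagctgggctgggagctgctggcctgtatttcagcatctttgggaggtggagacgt
Cd36: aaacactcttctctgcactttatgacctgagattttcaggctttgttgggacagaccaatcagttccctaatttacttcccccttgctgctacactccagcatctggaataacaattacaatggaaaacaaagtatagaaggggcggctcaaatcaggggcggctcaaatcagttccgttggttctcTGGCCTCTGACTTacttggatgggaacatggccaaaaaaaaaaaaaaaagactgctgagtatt
Acot4: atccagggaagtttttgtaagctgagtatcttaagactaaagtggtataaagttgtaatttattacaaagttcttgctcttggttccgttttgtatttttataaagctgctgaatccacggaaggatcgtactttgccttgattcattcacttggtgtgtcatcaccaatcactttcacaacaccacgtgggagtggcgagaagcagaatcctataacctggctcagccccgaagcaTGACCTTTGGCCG
The Creb3l3 match reads along the gene, at -209 to -197 from the start of the window shown. The other Creb3l3 window, at chr10:81098823-81099122, held 0 matches. The other 2 lie on the opposite strand, at -63 to -51 for Cd36 and at -13 to -1 for Acot4, so that their capitals show the reverse complement of the pattern. All 3 matches have 2 mismatches. The closest match among the members, with 1 mismatch, was AGGCCATAGGTCA in Fabp1, at -67 to -55 on the opposite strand, and Slc25a20 held AGGTGAAAGGTCG at 6 to 18 bases past its start.

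Cd36, the fatty acid translocase of the plasma membrane, was higher under YAP in both systems. It was 6.40, 5.50, 5.78 and 7.08 RPKM in R26 WT, 3.78, 9.47, 8.61 and 4.59 RPKM in tet-Myc, 8.503 to 10.7 RPKM (median 10.1) in tet-YAP and 11.1, 7.81 and 13.3 RPKM in tet-Myc/YAP. The tet-YAP and tet-Myc/YAP libraries stood above all WT libraries, by 0.65 ± 0.20 (SE, adjusted p = 0.0331) and 0.72 ± 0.24 (SE, adjusted p = 0.0136). Both calls depended on single libraries, since the first was lost without any of 7 libraries (WT 1, 2 or 3, or tet-YAP 2, 3, 5 or 6, at 0.60 to 0.71 over all leave-outs) and the second without tet-Myc/YAP 3 (0.56). In LAP the gap was wider, from 3.44, 3.67 and 3.97 RPKM in WT to 13.6, 13.3 and 7.72 RPKM in tet-Myc, 17.2, 12.2, 12.96 and 12.7 RPKM in tet-YAP, 13.8, 13.3 and 16.6 RPKM in tet-Myc/YAP and 4.37 to 13.5 RPKM (median 10.03) in tumours. Every induced library of LAP, tet-Myc included, lay above the highest WT library. The differences were 1.76 ± 0.29 (SE, adjusted p = 0.000387) in tet-YAP, 1.84 ± 0.31 (SE, adjusted p = 0.00012) in tet-Myc/YAP and 1.19 ± 0.26 (SE, adjusted p = 0.000514) in tumours, while that of tet-Myc, 1.48 ± 0.31 (SE, adjusted p = 0.124), was not called. Cd36 is also expressed in adipocytes, macrophages and endothelium. Adipocyte markers Adipoq, Lep, Plin1 and Retn were at or near 0 in every group, although Cidec, a lipid droplet gene of that list, was 10.05 RPKM in R26 tet-YAP and 1.49 in WT. The list also holds Cfd. Of its 6 genes, 5 were under 1 RPKM in every R26 library and 4 in every LAP library. Summed, the 6 were 2.40 to 2.58 RPKM in LAP WT, 1.08 to 3.08 in LAP tet-YAP and 0.554 to 1.87 in tumours. Summed macrophage markers were 52.4 to 96.0 RPKM in LAP WT, 114 to 154 in tet-YAP and 26.6 to 58.0 in tumours. Their part in the Cd36 values was not tested.

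Fabp1, the abundant fatty acid binding protein of hepatocytes, moved the other way in LAP. It fell in LAP tet-Myc/YAP (-1.004 ± 0.29, SE, adjusted p = 0.00935) and in tumours (-1.92 ± 0.24, SE, adjusted p = 1.62e-06), from a mean of 33.8 ± 4.83 RPKM (SD, n = 3) in WT to 8.99 ± 3.11 RPKM (SD, n = 8) in tumours. The LAP tet-Myc/YAP call was lost without tet-Myc/YAP 2 (-0.84). In R26 Fabp1 was not called in any comparison, and it was the member that differed most within close pairs, up to 2.78-fold between WT 1 and WT 4. Acaa2 (up to 1.84-fold) and Fgf21 (up to 1.54-fold) were the only other members to differ over 1.5-fold within a pair.

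The carnitine shuttle carries long-chain acyl groups into mitochondria through Cpt1a (the controlled entry step), Slc25a20 (the carrier of the inner membrane) and Cpt2 (the return step), while Crat handles short chains. At 2 days Crat alone rose in tet-YAP (0.77 ± 0.17, SE, adjusted p = 0.00565), to 9.69 to 11.4 RPKM (median 10.9) against 5.88, 6.77, 6.79 and 5.003 RPKM in WT, and the groups did not overlap. Crat and Slc25a20 were lower in tet-Myc/YAP than in tet-YAP (-0.88 ± 0.18, SE, adjusted p = 0.00078 and -0.51 ± 0.11, SE, adjusted p = 0.000793), and the Slc25a20 call was lost without tet-YAP 2 (-0.48), tet-YAP 4 (-0.46) or tet-Myc/YAP 2 (-0.49). In the tumours all 4 were lower, with differences of -1.56 ± 0.16 (SE, adjusted p = 1.75e-07) for Cpt2, -1.49 ± 0.19 (SE, adjusted p = 2e-06) for Slc25a20, -1.14 ± 0.15 (SE, adjusted p = 2.73e-06) for Cpt1a and -0.55 ± 0.17 (SE, adjusted p = 0.00725) for Crat. Of all genes, 31.3% were lower in tumours. Cpt2 had a mean of 22.5 ± 3.68 RPKM (SD, n = 3) in LAP WT and 7.33 ± 1.30 RPKM (SD, n = 8) in tumours, and no tumour reached a WT library. At a common ceiling the Cpt2 and Slc25a20 calls held in tumours (-0.83 and -0.76), those of Cpt1a (-0.40) and Crat (0.13) did not, and Crat changed sign. The Crat call was also lost without WT 2 (-0.45) or tumour 8 (-0.50).

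Of the 10 genes of mitochondrial beta-oxidation (Acadm, Acadl, Acadvl, Acads, Acaa2, Hadh, Hadha, Hadhb, Decr1 and Etfdh, the last passing electrons to the respiratory chain), tet-YAP had 0 called at 2 days and tet-Myc/YAP had 3. Of all genes, 6.19% and 42.2% were called in those comparisons, with 4.61% higher and 37.6% lower in tet-Myc/YAP. Averaged over the 10 genes, the 6 R26 tet-YAP libraries lay at -0.35 to 0.28 from the WT mean and the 4 WT libraries at -0.15 to 0.19. In tet-Myc/YAP, Acadvl and Acads, the dehydrogenases of very long and short chains, were lower (-0.57 ± 0.11, SE, adjusted p = 0.000368 and -0.65 ± 0.10, SE, adjusted p = 5.46e-05). Neither was called after median-ratio scaling, quantile normalization (Acadvl changed sign, to 0.035) or at a common ceiling, and Acadvl was not called without tet-Myc/YAP 1 (-0.49). Acadl, the long-chain dehydrogenase, was higher (0.51 ± 0.16, SE, adjusted p = 0.0104), a call lost without WT 1 (0.43), WT 2 (0.50) or tet-Myc/YAP 3 (0.36). In tumours 9 of the 10 were lower and 0 higher, where 31.3% of all genes were lower and 21.5% higher. Acadl was the exception at -0.41 ± 0.15 (SE, adjusted p = 0.0255). The 9 differences ran from -1.41 for Acads to -0.74 for Acadm, the medium-chain dehydrogenase, with Hadha and Hadhb, the subunits of the trifunctional protein, at -0.997 and -1.12. In LAP tet-YAP 6 were lower, where 15.3% of all genes were, from -0.77 (Acads) to -0.56 (Hadha). All 6 calls (Acads, Acadvl, Acaa2, Hadha, Hadhb and Decr1) were lost without WT 1, at -0.44 to -0.59. Those of Hadha, Hadhb and Decr1 were also lost without WT 2, tet-YAP 3 or tet-YAP 4, at -0.49 to -0.55, and those of Hadha and Decr1 without tet-YAP 2. In LAP tet-Myc/YAP 4 were lower, where 14% of all genes were. Acadl differed by -0.70 ± 0.18 (SE, adjusted p = 0.00505), and Acads, Decr1 and Acadvl by -0.58, -0.54 and -0.53. The last 3 calls were lost without WT 1, WT 2 or tet-Myc/YAP 2, at differences of -0.36 to -0.60, that of Acads also without tet-Myc/YAP 3 (-0.56) and that of Decr1 without tet-Myc/YAP 1 (-0.55). At a common ceiling only Acads (-0.66) and Decr1 (-0.54) of the 10 remained lower in tumours, 0 of the 10 in either 4-week group, and Acadm came to 0.00758.

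Of the 2 genes of ketone bodies and fuel choice, Bdh1, which interconverts acetoacetate and beta-hydroxybutyrate, was lower in the same 3 LAP groups as Ppara. Bdh1 was 23.6, 24.3 and 19.5 RPKM in LAP WT, 20.9, 17.3 and 17.1 RPKM in tet-Myc, 14.4, 12.2, 9.96 and 8.97 RPKM in tet-YAP, 6.32, 3.24 and 13.5 RPKM in tet-Myc/YAP and 2.80 to 6.46 RPKM (median 5.15) in tumours. No library of the last 3 groups reached WT, and the differences were -0.97 ± 0.31 (SE, adjusted p = 0.025), -1.69 ± 0.33 (SE, adjusted p = 0.000552) and -2.11 ± 0.28 (SE, adjusted p = 2.75e-06). The tet-YAP call was lost without WT 1, WT 2, tet-YAP 3 or tet-YAP 4, at -0.86 to -0.93. R26 libraries had 19.01, 17.1, 17.9 and 20.2 RPKM in WT, 15.8, 18.03, 19.4 and 18.8 RPKM in tet-Myc, 14.8 to 17.7 RPKM (median 16.5) in tet-YAP and 15.3, 14.7 and 17.1 RPKM in tet-Myc/YAP, with 0 calls in any R26 comparison. Pdk4, the kinase that shuts pyruvate oxidation when fat is burned, was low in most libraries. It was higher in LAP tet-Myc/YAP than in WT (1.12 ± 0.38, SE, adjusted p = 0.0228), a call lost without WT 1 (1.03), WT 3 (1.07) or tet-Myc/YAP 3 (0.97). In tet-YAP (1.02) and tumours (1.12) it was also called higher at a common ceiling, and with close pairs averaged the tet-Myc/YAP call was lost. In R26 it differed between the close pairs of WT (1.18, 5.34, 4.57 and 0.871 RPKM, of which WT 2 and 3 are the high pair) and between the close pair 1 and 2 of tet-Myc/YAP and library 3 (10.2, 10.7 and 2.26 RPKM).

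All 5 genes of peroxisomal oxidation were lower in LAP tet-Myc/YAP and in tumours, where 14% and 31.3% of all genes were lower. The 5 are Ehhadh (the bifunctional enzyme), the thiolases Acaa1a and Acaa1b, Decr2 (a dienoyl-CoA reductase) and Pex11a (a peroxisome proliferation factor). Ehhadh was 31.2, 32.2 and 26.1 RPKM in WT, 27.1, 22.2 and 24.5 RPKM in tet-Myc, 23.4, 18.1, 15.96 and 11.4 RPKM in tet-YAP, 6.90, 5.92 and 12.8 RPKM in tet-Myc/YAP and 3.33 to 9.21 RPKM (median 6.86) in tumours. Tet-YAP lay below WT but was not called (-0.82 ± 0.31, SE, adjusted p = 0.0529), while tet-Myc/YAP (-1.82 ± 0.34, SE, adjusted p = 0.0003) and tumours (-2.21 ± 0.28, SE, adjusted p = 1.71e-06) were. Pex11a went from 7.16, 8.47 and 7.73 RPKM in WT and 6.09, 6.16 and 8.70 RPKM in tet-Myc to 3.87, 3.08, 2.90 and 3.52 RPKM in tet-YAP, 2.20, 2.19 and 2.46 RPKM in tet-Myc/YAP and 0.581 to 1.80 RPKM (median 1.19) in tumours. The ranges of WT, tet-YAP, tet-Myc/YAP and tumours followed each other downward without overlap, with differences to WT of -1.11 ± 0.22 (SE, adjusted p = 0.00187), -1.57 ± 0.24 (SE, adjusted p = 4.75e-05) and -2.38 ± 0.20 (SE, adjusted p = 1.24e-08).

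Decr2 fell from 34.9, 31.1 and 25.1 RPKM in LAP WT, with 22.7, 19.8 and 22.2 RPKM in tet-Myc, to 20.01, 16.7, 12.3 and 11.6 RPKM in tet-YAP, 10.5, 7.63 and 12.8 RPKM in tet-Myc/YAP and 4.89 to 9.62 RPKM (median 7.53) in tumours. The differences were -1.001 ± 0.23 (SE, adjusted p = 0.0037), -1.53 ± 0.24 (SE, adjusted p = 6.54e-05) and -2.004 ± 0.20 (SE, adjusted p = 1.1e-07), without overlap with WT. Acaa1b had 35.1, 29.6 and 22.2 RPKM in WT, 25.1, 22.8 and 20.8 RPKM in tet-Myc, 24.5, 17.5, 16.9 and 14.4 RPKM in tet-YAP, 9.76, 6.32 and 16.2 RPKM in tet-Myc/YAP and 1.75 to 6.28 RPKM (median 4.77) in tumours. Tet-YAP overlapped WT for this gene, and the calls were in tet-Myc/YAP (-1.46 ± 0.35, SE, adjusted p = 0.0028) and tumours (-2.70 ± 0.29, SE, adjusted p = 3.07e-07). Acaa1a, its near-identical neighbor, with which reads may be shared, was lower, at -0.86, -0.82 and -1.32 in tet-YAP, tet-Myc/YAP and tumours. At a common ceiling all 5 were still lower in tumours, from -1.98 (Acaa1b) to -0.58 (Acaa1a), 4 of 5 in tet-Myc/YAP, and 0 of 5 in tet-YAP.

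At 2 days 1 call was made among these 5 genes against WT, a lower one in tet-Myc/YAP, where 37.6% of all genes were lower. Ehhadh was 26.6, 24.7, 26.4 and 27.5 RPKM in R26 WT, 19.8, 27.0, 28.6 and 27.3 RPKM in tet-Myc, 29.3 to 35.0 RPKM (median 31.9) in tet-YAP and 22.4, 24.9 and 27.9 RPKM in tet-Myc/YAP. Decr2 was 26.7, 23.8, 24.6 and 30.0 RPKM, 21.6, 23.4, 27.7 and 26.8 RPKM, 22.02 to 30.0 RPKM (median 26.3) and 16.7, 16.2 and 24.9 RPKM in the same order, and Acaa1b 25.6, 26.6, 29.5 and 31.6 RPKM, 21.5, 23.0, 25.7 and 28.0 RPKM, 18.5 to 27.4 RPKM (median 22.3) and 19.5, 21.2 and 27.6 RPKM. Pex11a had 10.6, 7.96, 7.88 and 9.31 RPKM in WT, 12.4, 10.8, 14.7 and 12.2 RPKM in tet-Myc, 8.75 to 13.9 RPKM (median 9.995) in tet-YAP and 6.82, 7.24 and 9.24 RPKM in tet-Myc/YAP. Ehhadh in tet-YAP (0.28 ± 0.10, SE, adjusted p = 0.0556) and Pex11a in tet-Myc (0.46 ± 0.15, SE, adjusted p = 0.0541) lay above WT without overlap and were not called. The call was that of Acaa1a in tet-Myc/YAP (-0.53 ± 0.13, SE, adjusted p = 0.00266), which was lost without tet-Myc/YAP 1 (-0.45) and under median-ratio scaling, and changed sign after quantile normalization (0.036).

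**Figure D2:**
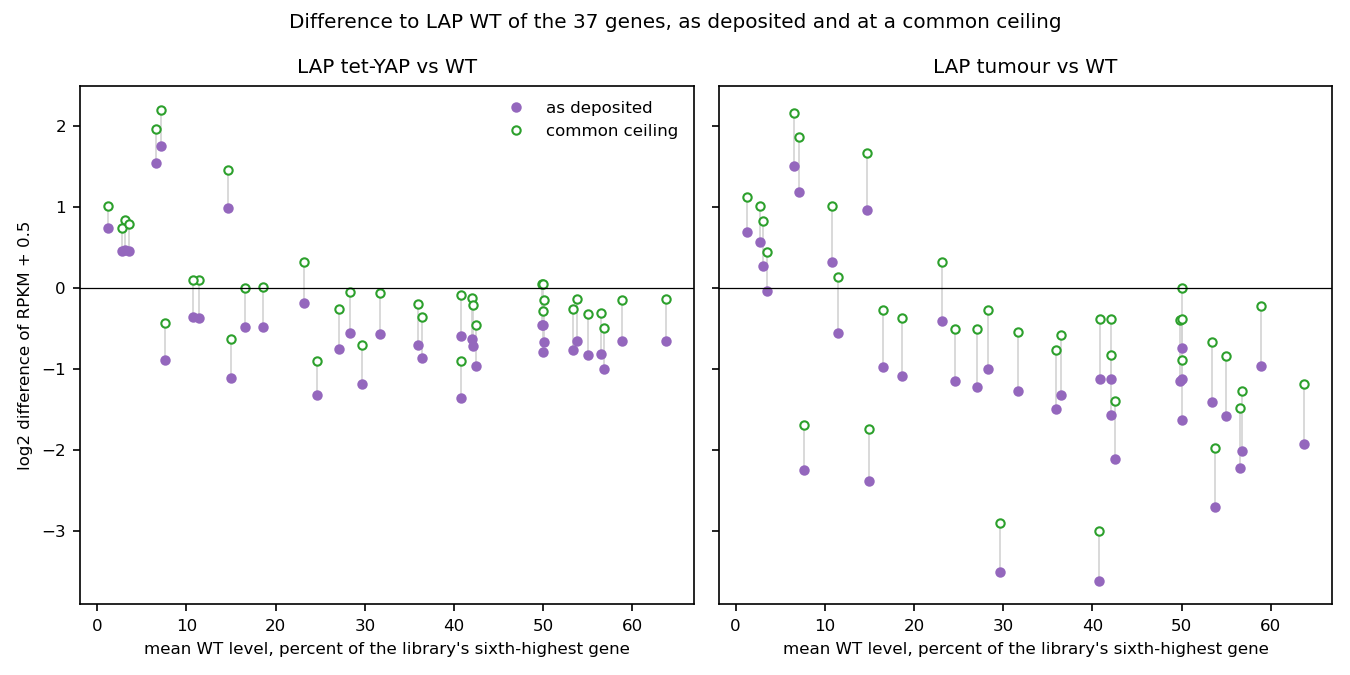
Log2 difference to LAP WT of each of the 37 genes against its mean WT level, as a percent of the sixth-highest gene of the library, as deposited (filled) and with libraries rescaled to a common ceiling (open), for tet-YAP and for tumours. In tet-YAP the 14 lower calls become 0, and in tumours the 27 become 16. The same rescaling raises the median of all genes to 0.31 and 0.50.

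The Cyp4a omega-hydroxylases, which oxidize the far end of fatty acids and are the classic mouse targets of PPAR-alpha, numbered 3 of 4 higher in both R26 groups with tet-YAP and 3 of 4 lower in LAP tet-Myc/YAP and tumours. Of all genes, 2% (tet-YAP) and 4.61% (tet-Myc/YAP) were higher in those R26 groups, and 14% and 31.3% lower in those LAP groups. Cyp4a14 was 2.47, 6.96, 7.81 and 2.32 RPKM in R26 WT, 4.40, 21.7, 29.4 and 10.9 RPKM in tet-Myc, 32.0 to 44.1 RPKM (median 36.8) in tet-YAP and 29.1, 30.2 and 29.0 RPKM in tet-Myc/YAP. Every tet-YAP and tet-Myc/YAP library stood above every WT library, by 2.98 ± 0.40 (SE, adjusted p = 0.000192) and 2.65 ± 0.47 (SE, adjusted p = 0.00016), whereas in tet-Myc (1.54 ± 0.44, SE, adjusted p = 0.0332) the female-pattern libraries 2 and 3 were the high ones. The tet-Myc call was lost without WT 1 (1.31), WT 4 (1.28), tet-Myc 2 (1.31) or tet-Myc 3 (1.17). In LAP, Cyp4a14 was 4.38, 32.6 and 22.6 RPKM in WT, 4.18, 2.51 and 25.3 RPKM in tet-Myc, 22.1, 12.7, 2.66 and 0.940 RPKM in tet-YAP, 0.376, 0.0963 and 1.71 RPKM in tet-Myc/YAP and 0.148 to 2.24 RPKM (median 0.745) in tumours. The low WT library, WT 1, is the one with a male pattern, and even it lay above every tumour. Tet-YAP was not called (-1.35 ± 0.88, SE, adjusted p = 0.244), and tet-Myc/YAP (-3.89 ± 0.94, SE, adjusted p = 0.00274) and tumours (-3.61 ± 0.78, SE, adjusted p = 0.000504) were lower.

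Cyp4a10 was 3.43, 10.9, 11.9 and 3.30 RPKM in R26 WT, 6.13, 15.1, 20.5 and 4.51 RPKM in tet-Myc, 16.1 to 29.1 RPKM (median 20.9) in tet-YAP and 16.6, 16.8 and 19.8 RPKM in tet-Myc/YAP, with differences of 1.71 ± 0.39 (SE, adjusted p = 0.00776) in tet-YAP and 1.42 ± 0.46 (SE, adjusted p = 0.013) in tet-Myc/YAP. WT 2 and 3, a close pair, were the high WT libraries for Cyp4a10, Cyp4a14 and Cyp4a32, although all WT libraries had a male pattern. LAP libraries had 6.65, 23.1 and 14.7 RPKM in WT, 6.13, 5.29 and 16.5 RPKM in tet-Myc, 13.3, 9.35, 3.75 and 1.81 RPKM in tet-YAP, 0.537, 0.236 and 2.02 RPKM in tet-Myc/YAP and 0.129 to 1.65 RPKM (median 0.505) in tumours. No tet-Myc/YAP or tumour library reached WT, and the differences were -3.46 ± 0.64 (SE, adjusted p = 0.000301) and -3.503 ± 0.53 (SE, adjusted p = 1.39e-05). At a common ceiling the tumour differences were -2.90 for Cyp4a10, -3.002 for Cyp4a14 and -1.69 for Cyp4a32, all called.

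Cyp4a31 and Cyp4a32 are close copies of Cyp4a10, and reads may be shared among them. Cyp4a31 was 0.620, 1.15, 1.54 and 0.583 RPKM in R26 WT, 0.425, 0.609, 1.27 and 0.185 RPKM in tet-Myc, 4.76 to 6.21 RPKM (median 5.32) in tet-YAP and 8.31, 9.71 and 2.12 RPKM in tet-Myc/YAP. It rose without overlap in tet-YAP (2.05 ± 0.32, SE, adjusted p = 0.00067) and tet-Myc/YAP (2.12 ± 0.38, SE, adjusted p = 0.000162). In LAP it was 0.309, 2.48 and 1.32 RPKM in WT, 0.688, 0.4657 and 2.35 RPKM in tet-Myc, 1.86, 1.72, 1.59 and 1.83 RPKM in tet-YAP, 0.555, 0.459 and 2.07 RPKM in tet-Myc/YAP and 0.0526 to 4.58 RPKM (median 2.65) in tumours, with 0 calls and overlapping groups. Cyp4a32 had 3.84, 10.95, 13.5 and 3.31 RPKM in R26 WT, 2.97, 3.51, 4.43 and 3.56 RPKM in tet-Myc, 5.83 to 8.68 RPKM (median 7.55) in tet-YAP and 13.4, 13.9 and 3.14 RPKM in tet-Myc/YAP, with 0 calls against WT. In LAP it had 4.99, 5.09 and 2.40 RPKM in WT, 3.35, 1.41 and 3.28 RPKM in tet-Myc, 3.001, 1.45, 1.79 and 1.68 RPKM in tet-YAP, 0.223, 0.274 and 1.03 RPKM in tet-Myc/YAP and 0.0281 to 1.34 RPKM (median 0.385) in tumours. It was lower, at -2.23 ± 0.42 (SE, adjusted p = 0.00038) in tet-Myc/YAP and -2.24 ± 0.35 (SE, adjusted p = 2.03e-05) in tumours, without overlap.

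**Figure D3:**
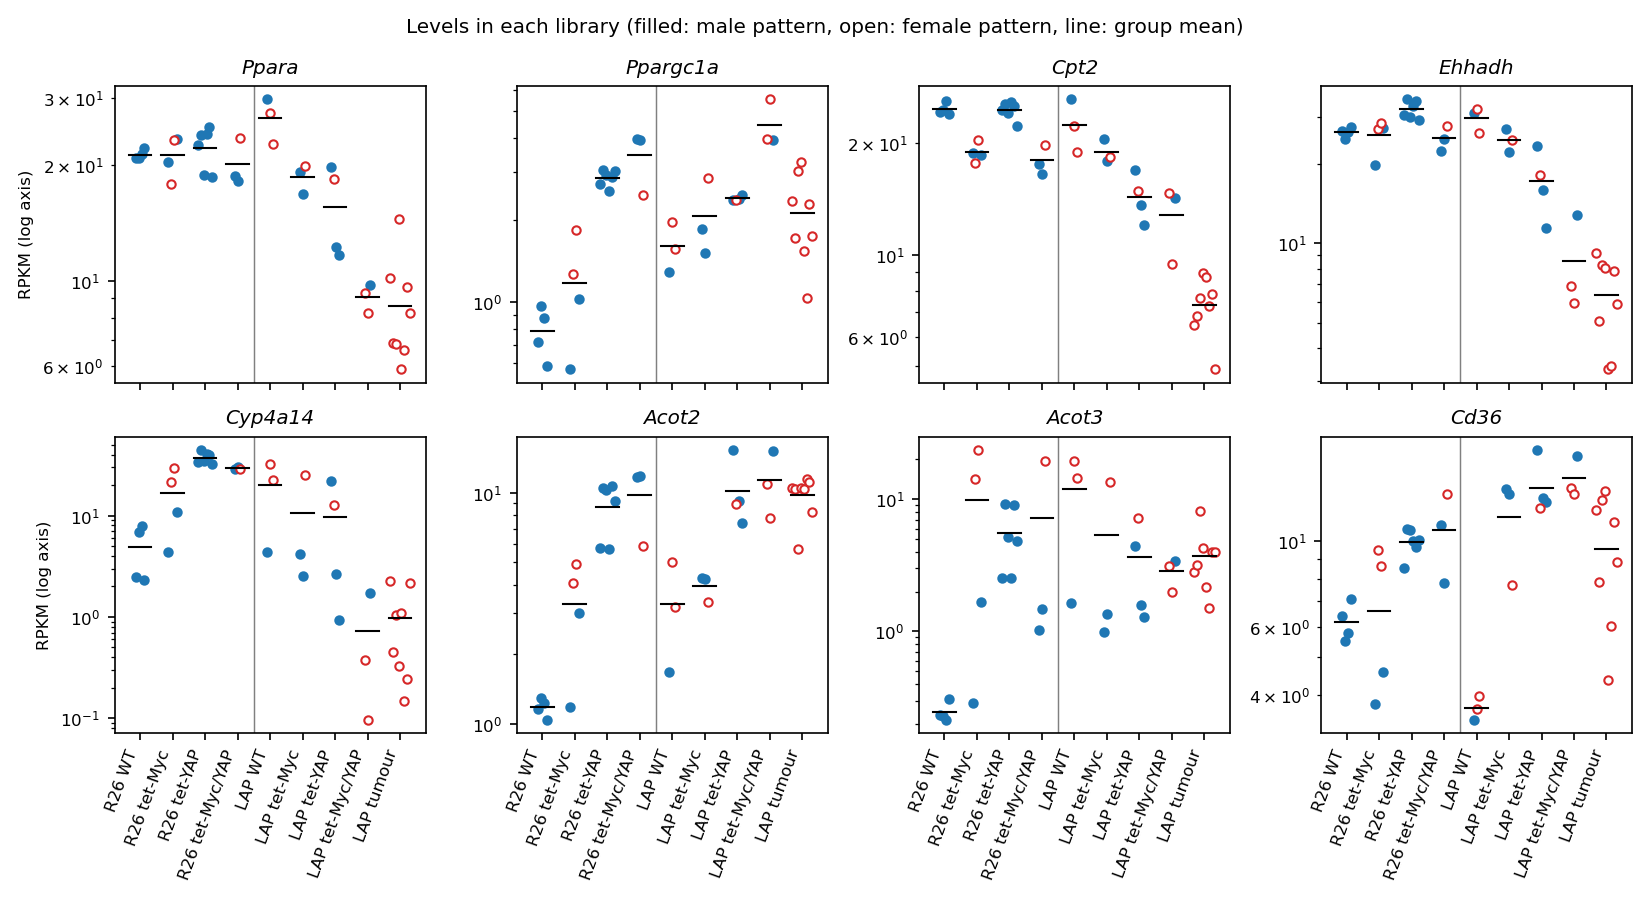
RPKM (log axis) of 8 of the genes in each library of the 9 groups, with filled points for a male and open points for a female Xist and Y-linked pattern, and a line at the group mean. In 5 of the 6 groups that hold both patterns, LAP tet-Myc/YAP being the exception, the female-pattern libraries are the highest for Acot3, and Cyp4a14 is below the lowest WT library in all 8 tumours.

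The acyl-CoA thioesterases, which release free fatty acids from acyl-CoA in the cytosol (Acot1), mitochondria (Acot2) and peroxisomes (Acot3, Acot4), were the only role with every member higher in both R26 groups that carry tet-YAP. Of all genes, 2% were higher in R26 tet-YAP and 4.61% in R26 tet-Myc/YAP. The 4 thioesterases lie in a cluster of near-identical genes, so reads may be shared among them. Acot2 was 1.16, 1.29, 1.23 and 1.04 RPKM in R26 WT, 1.17, 4.05, 4.89 and 3.01 RPKM in tet-Myc, 5.72 to 10.7 RPKM (median 9.76) in tet-YAP and 11.7, 11.8 and 5.86 RPKM in tet-Myc/YAP. Its differences were 2.41 ± 0.28 (SE, adjusted p = 7.66e-05) in tet-YAP, 2.56 ± 0.34 (SE, adjusted p = 9.82e-06) in tet-Myc/YAP and 1.05 ± 0.31 (SE, adjusted p = 0.0391) in tet-Myc, of which the last was lost without any of 7 libraries (all but tet-Myc 1, at 0.83 to 1.397 over all leave-outs). In LAP, Acot2 was 1.67, 5.02 and 3.20 RPKM in WT, 4.29, 4.24 and 3.36 RPKM in tet-Myc, 15.3, 8.90, 9.24 and 7.42 RPKM in tet-YAP, 10.9, 7.80 and 15.2 RPKM in tet-Myc/YAP and 5.70 to 11.5 RPKM (median 10.5) in tumours. Every tet-YAP, tet-Myc/YAP and tumour library lay above every WT library, by 1.55 ± 0.29 (SE, adjusted p = 0.00105), 1.69 ± 0.31 (SE, adjusted p = 0.000261) and 1.51 ± 0.26 (SE, adjusted p = 4.39e-05), and these 3 calls held at a common ceiling.

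Acot1 was 1.83, 1.91, 2.495 and 1.69 RPKM in R26 WT, 2.31, 3.99, 7.26 and 2.61 RPKM in tet-Myc, 7.95 to 13.2 RPKM (median 8.74) in tet-YAP and 8.79, 9.11 and 2.77 RPKM in tet-Myc/YAP. It rose by 2.07 ± 0.30 (SE, adjusted p = 0.000392) and 1.43 ± 0.35 (SE, adjusted p = 0.00227), without overlap. In LAP it was 3.72, 8.76 and 4.24 RPKM in WT, 5.04, 3.84 and 4.89 RPKM in tet-Myc, 5.90, 2.73, 4.45 and 3.34 RPKM in tet-YAP, 10.6, 6.90 and 10.2 RPKM in tet-Myc/YAP and 4.12 to 9.92 RPKM (median 7.35) in tumours. The LAP groups overlapped WT and were not called against it, though at a common ceiling tet-Myc/YAP (1.07) and tumours (1.01) were higher.

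For Acot3 and Acot4, the female-pattern libraries lay above the male-pattern ones in 5 of the 6 groups that hold both. Acot3 was 0.232, 0.227, 0.214 and 0.307 RPKM in R26 WT, 0.288, 14.2, 23.5 and 1.67 RPKM in tet-Myc, 2.52 to 9.24 RPKM (median 4.99) in tet-YAP and 1.02, 1.47 and 19.3 RPKM in tet-Myc/YAP, and the highest values of tet-Myc and tet-Myc/YAP were those of the female-pattern libraries. WT and tet-YAP, both of male pattern throughout, did not overlap (2.87 ± 0.83, SE, adjusted p = 0.0246). Leaving out any WT library or tet-YAP 5 lost that call, at 2.71 to 2.91, and the tet-Myc/YAP call (2.39 ± 0.98, SE, adjusted p = 0.0416) was lost without any WT library (2.37 to 2.43) or tet-Myc/YAP 3 (1.22). In LAP, Acot3 was 1.63, 19.5 and 14.4 RPKM in WT, 0.989, 1.36 and 13.6 RPKM in tet-Myc, 4.45, 7.19, 1.59 and 1.27 RPKM in tet-YAP, 3.12, 1.99 and 3.42 RPKM in tet-Myc/YAP and 1.49 to 8.08 RPKM (median 3.58) in tumours. The female-pattern libraries were the high ones in WT, tet-Myc and tet-YAP, and 0 LAP comparisons gave a call. The 8 tumours, all of female pattern, lay below the female-pattern WT libraries.

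Acot4 was 4.57, 3.77, 4.56 and 5.34 RPKM in R26 WT, 5.91, 13.7, 19.4 and 7.84 RPKM in tet-Myc, 8.32 to 12.8 RPKM (median 10.2) in tet-YAP and 6.76, 6.75 and 16.8 RPKM in tet-Myc/YAP. Its differences were 1.14 ± 0.31 (SE, adjusted p = 0.0274), 1.10 ± 0.28 (SE, adjusted p = 0.0142) and 0.95 ± 0.33 (SE, adjusted p = 0.0206), the groups not overlapping WT, but the first was 0.54 in male-pattern libraries and not called, and the third was lost without tet-Myc/YAP 3 (0.53). The tet-Myc call was also lost without WT 1 (1.14), WT 2 (1.06), WT 3 (1.14), tet-Myc 2 (1.02) or tet-Myc 3 (0.86). LAP libraries had 8.32, 19.1 and 13.8 RPKM in WT, 5.96, 7.73 and 14.4 RPKM in tet-Myc, 9.38, 10.4, 6.31 and 5.22 RPKM in tet-YAP, 5.51, 4.30 and 6.55 RPKM in tet-Myc/YAP and 3.92 to 7.15 RPKM (median 5.37) in tumours. Tet-Myc/YAP (-1.20 ± 0.31, SE, adjusted p = 0.00484) and tumours (-1.21 ± 0.26, SE, adjusted p = 0.000459) were lower and did not overlap WT. The tumour call was lost at a common ceiling (-0.50).

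Fgf21, the fasting hormone secreted by liver, was called higher in R26 tet-YAP and tet-Myc/YAP and was variable in LAP. It was 1.24, 1.57, 1.45 and 0.803 RPKM in R26 WT, 0.591, 1.83, 0.359 and 0.1997 RPKM in tet-Myc, 5.11 to 13.3 RPKM (median 11.7) in tet-YAP and 15.7, 14.8 and 1.10 RPKM in tet-Myc/YAP. Tet-YAP was higher without overlap (2.54 ± 0.52, SE, adjusted p = 0.00404), and in tet-Myc/YAP (2.08 ± 0.62, SE, adjusted p = 0.0076) the close pair 1 and 2 was high and library 3 within WT, the call being lost without library 1 (1.51) or 2 (1.55). In LAP it was 0.669, 3.19 and 1.51 RPKM in WT, 0.271, 0.708 and 0.342 RPKM in tet-Myc, 5.42, 0.983, 3.45 and 1.33 RPKM in tet-YAP, 1.62, 1.78 and 2.62 RPKM in tet-Myc/YAP and 0.260 to 7.36 RPKM (median 1.87) in tumours, with 0 calls.

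Vnn1, the pantetheinase of the hepatocyte surface and a known PPAR-alpha target, rose in both systems. It was 5.49, 5.01, 5.04 and 5.55 RPKM in R26 WT, 2.99, 3.23, 5.99 and 2.22 RPKM in tet-Myc, 9.31 to 18.4 RPKM (median 15.5) in tet-YAP and 17.5, 17.1 and 12.2 RPKM in tet-Myc/YAP. The YAP groups stood above WT without overlap, by 1.34 ± 0.21 (SE, adjusted p = 0.000678) and 1.46 ± 0.25 (SE, adjusted p = 0.000105). In LAP it was 4.16, 10.96 and 7.18 RPKM in WT, 5.69, 5.27 and 6.15 RPKM in tet-Myc, 19.5, 14.1, 12.7 and 11.8 RPKM in tet-YAP, 18.3, 14.9 and 16.3 RPKM in tet-Myc/YAP and 7.97 to 19.6 RPKM (median 15.5) in tumours. It was higher in tet-YAP (0.99 ± 0.27, SE, adjusted p = 0.0118), tet-Myc/YAP (1.19 ± 0.29, SE, adjusted p = 0.00322) and tumours (0.96 ± 0.24, SE, adjusted p = 0.00193), where the lowest tumours overlapped WT. The tet-YAP call was lost without WT 1 (0.65), its lowest WT library. Angptl4, a secreted lipase inhibitor, was lower in LAP tet-Myc/YAP (-1.31 ± 0.33, SE, adjusted p = 0.0041) and tumours (-1.12 ± 0.28, SE, adjusted p = 0.00164), and only the first held at a common ceiling (-0.94 against -0.38). In R26 it was lower in tet-Myc/YAP than in tet-YAP (-0.63 ± 0.16, SE, adjusted p = 0.00336), at -0.50 and not called without tet-Myc/YAP 3.

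**Figure D4:**
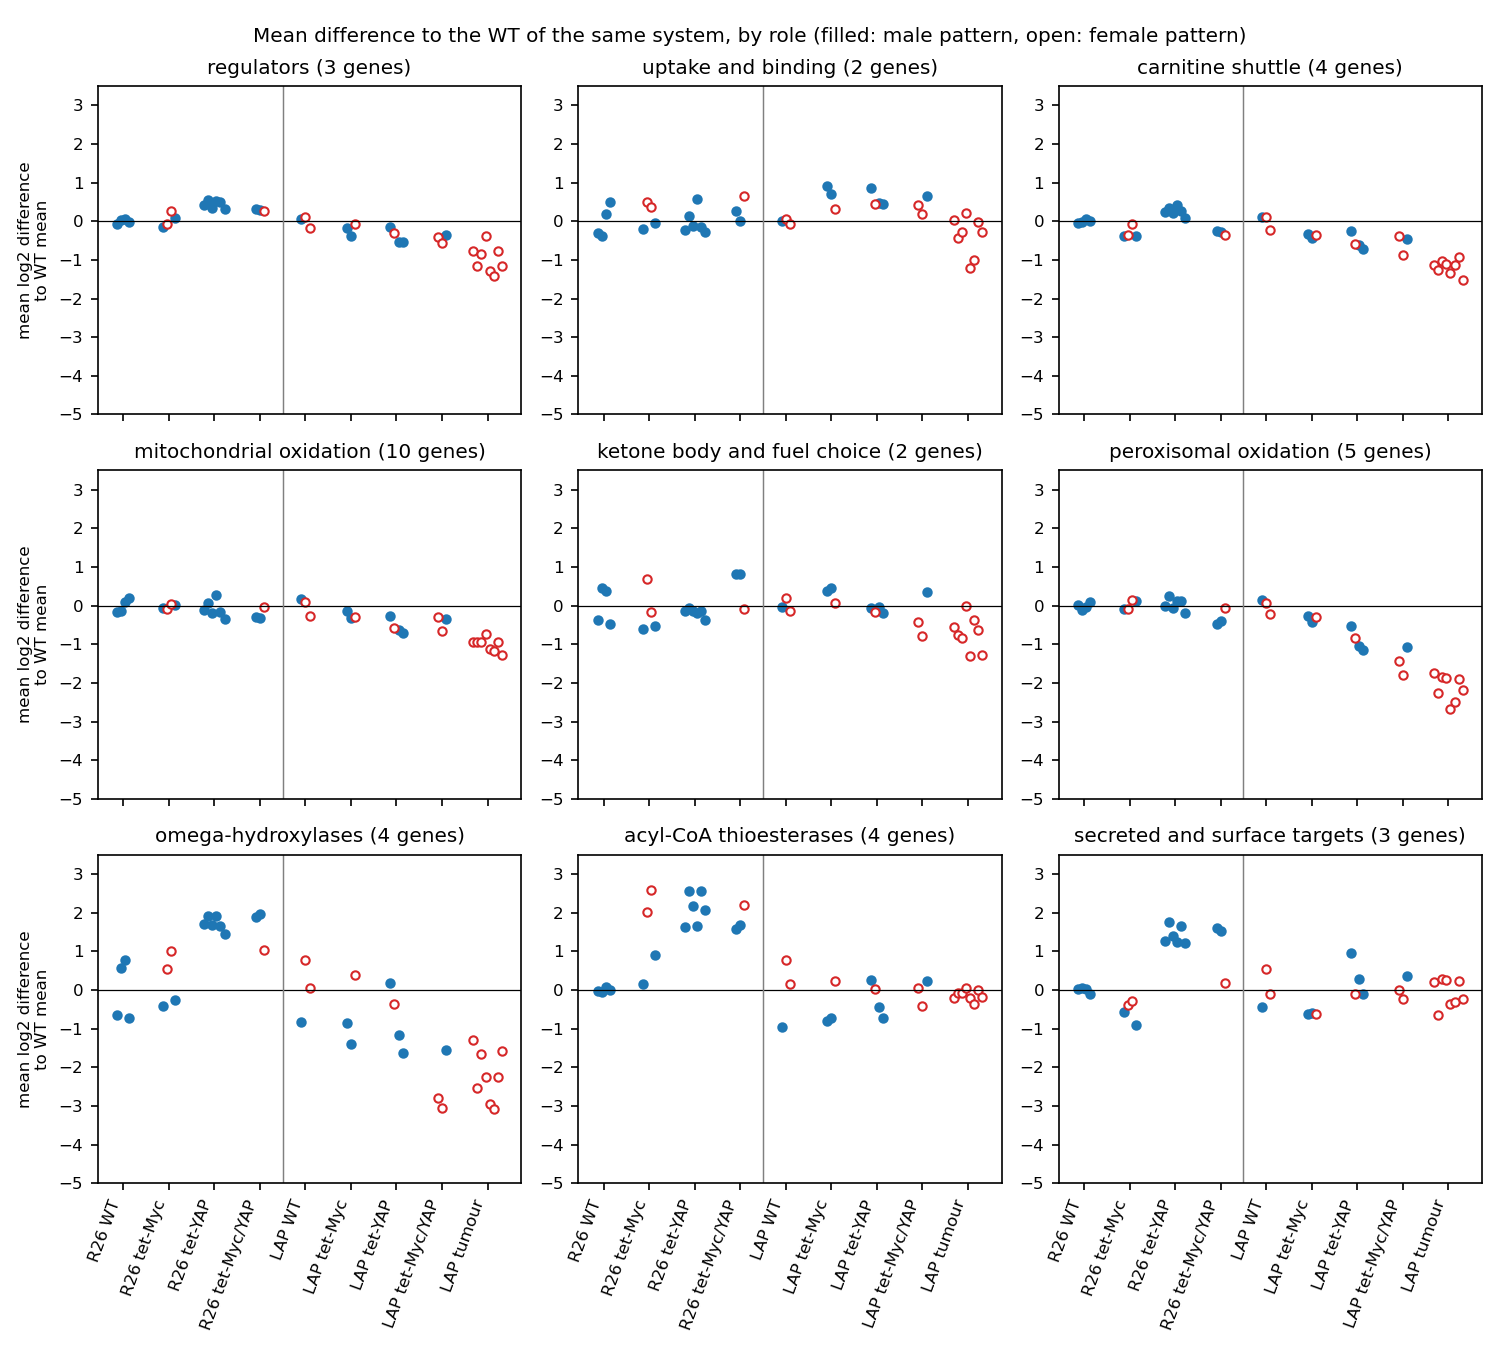
Mean log2 difference to the WT mean of the same system over the genes of each role, with 1 point for each library of the 9 groups, filled for a male and open for a female pattern. Peroxisomal genes lie at -2.68 to -1.74 in the 8 tumours, and thioesterases at 1.63 to 2.58 in the 6 R26 tet-YAP libraries.

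The 2 systems are set side by side by role, with no test between them because the tables were normalized separately. Induction time and transactivator also differ together between them and cannot be told apart. R26 WT and tet-YAP were of male pattern throughout, LAP tet-YAP in 3 of 4 libraries, and the tumours in none. Omega-hydroxylases averaged 1.44 to 1.92 from the WT mean in R26 tet-YAP libraries, -1.63 to 0.18 in LAP tet-YAP and -3.07 to -1.29 in tumours, and 0 of the 4 were called in LAP tet-YAP. Thioesterases averaged 1.63 to 2.58 in R26 tet-YAP, -0.73 to 0.27 in LAP tet-YAP and -0.36 to 0.06 in tumours. The ranges of peroxisomal genes were -0.18 to 0.26 in R26 tet-YAP, -1.15 to -0.52 in LAP tet-YAP and -2.68 to -1.74 in tumours, and those of mitochondrial genes -0.35 to 0.28, -0.70 to -0.27 and -1.27 to -0.72 in the same order. Of the 12 genes higher in R26 tet-YAP, 3 (Acot2, Vnn1, Cd36) were also higher in LAP tet-YAP, out of 3 called higher there.

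Groups with both transgenes were also compared with tet-YAP alone. At 2 days, tet-Myc/YAP differed from tet-YAP in 6 genes, 1 higher (Pdk4, 1.44 ± 0.56, SE, adjusted p = 0.0379) and 5 lower (Crat, Angptl4, Acads, Creb3l3 and Slc25a20), against 4.22% and 23.2% of all genes. Only Crat stayed lower under median-ratio scaling, where the split was 3 higher and 1 lower. The count became 3 lower without tet-Myc/YAP 2 and 2 higher with 9 lower without tet-Myc/YAP 3, and the Pdk4 call was lost without any of tet-YAP 1, 3, 4 and 6 (1.39 to 1.46) or tet-Myc/YAP 1 (1.13) and 2 (1.09). At 4 weeks tet-Myc/YAP differed from tet-YAP in 8 genes, against 20.5% of all genes higher and 8.44% lower. Ppargc1a and Acot1 were higher (0.76 and 1.11), and Cyp4a14, Cyp4a10, Cyp4a32, Ehhadh, Ppara and Acadl were lower (-2.53, -2.28, -1.35, -1.002, -0.71 and -0.52). That count depended on single libraries: it was 2 higher and 2 lower without tet-YAP 1, 2 and 3 without tet-YAP 2, 0 and 1 without tet-Myc/YAP 1, 1 and 1 without tet-Myc/YAP 2, and 3 and 10 without tet-Myc/YAP 3. With close pairs averaged it was 1 and 1 (Acot1, Cyp4a10).

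The interaction term asks whether both transgenes together differ from the sum of their single differences. In R26 it was called for 4 members, all lower (Cyp4a14, Acot1, Acot4 and Pex11a), and for 0 higher, where 21.1% of all genes were called lower and 4.46% higher. With limma, 2 members were higher and 11 lower at an unadjusted p under 0.05. The values were -1.87 ± 0.62 (SE, adjusted p = 0.0267), -1.398 ± 0.46 (SE, adjusted p = 0.0271), -1.30 ± 0.44 (SE, adjusted p = 0.0294) and -0.91 ± 0.21 (SE, adjusted p = 0.0039), and 0 of the 4 were called after median-ratio scaling, after quantile normalization, at a common ceiling or with close pairs averaged. The split itself turned with the setting: it was 1 higher and 0 lower under median-ratio scaling, 3 and 0 after quantile normalization, 5 and 7 in male-pattern libraries and 0 and 0 in the last 2. In Pex11a the tet-Myc libraries were 12.4, 10.8, 14.7 and 12.2 RPKM and the tet-Myc/YAP libraries 6.82, 7.24 and 9.24 RPKM. The R26 count was 2 without tet-Myc 3, tet-Myc/YAP 1 or tet-Myc/YAP 2, and 10 without tet-Myc/YAP 3. In LAP it was called higher for Crat (1.02 ± 0.28, SE, adjusted p = 0.0247) and lower for Cd36 (-1.398 ± 0.42, SE, adjusted p = 0.0354), against 12% and 3.72% of all genes. The Cd36 call was lost in 8 of 13 leave-outs (-1.65 to -1.26), and the count was 0 without WT 2, tet-Myc/YAP 1 or tet-Myc 1, 1 without WT 1, tet-Myc 2, tet-YAP 3 or tet-YAP 4, and 4 without tet-YAP 1. With close pairs averaged it was 0.

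Against the 4-week tet-YAP liver of the same genotype, tumours had 1 member higher (Acot1, 0.68 ± 0.24, SE, adjusted p = 0.0339) and 18 lower, where 9.89% of all genes were called higher and 15.5% lower. The largest of these falls were Cyp4a10 (-2.32), Cyp4a14 (-2.25), Acaa1b (-2.05), Ehhadh (-1.397) and Cyp4a32 (-1.35). Ppara was lower, at -0.83 ± 0.19 (SE, adjusted p = 0.0021), with overlapping groups. The Cyp4a14 call was lost without tet-YAP 1 (-1.62) or 2 (-1.88), and that of Hadhb without tet-YAP 1 (-0.43) or tumour 5, 6 or 8 (-0.47 to -0.50). With close pairs averaged, 0 were higher and 15 lower, without Acot1, Cyp4a14, Acads and Hadhb. The Acot1 call was lost without tet-YAP 2 (0.53), 3 (0.73) or 4 (0.61) or tumour 2 (0.65), 4 (0.60), 5 (0.62) or 6 (0.65). All tumours had a female pattern and 1 of 4 tet-YAP libraries did. With the sex pattern as a covariate, 0 members were higher and 14 lower (1032 and 1171 of all genes), and 13 of the 19 calls were kept. Those of Acot1, Acads, Bdh1, Creb3l3, Cyp4a32 and Hadhb were lost. Female-pattern libraries alone leave 1 tet-YAP library.

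The 8 tumours differed among themselves. Tumour 4 was the highest for 19 of the 37 genes, and tumours 5, 6 and 8 were the lowest for 12, 10 and 10. Tumour 4 was also the shallowest tumour library (RPKM denominator of 41160000 reads, sixth-highest gene at 38.6 RPKM). Tumours 5 and 6 were the deepest (55690000 and 56810000 reads, 28.8 and 28.7 RPKM). Tumour 8 had the fewest reads in genes (8810000). The part of depth in this ranking was not tested. Ppara ran from 5.88 RPKM in tumour 5 to 14.5 in tumour 4, and Fabp1 from 4.96 in tumour 5 to 13.2 in tumour 4. Cyp4a31 had the widest ratio, from 0.0526 in tumour 5 to 4.58 in tumour 3. The lowest spread of the 37 was that of Acaa1a, whose coefficient of variation was 9.95%.

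A list of 65 other genes of fatty acid activation, peroxisomes and oxidation was examined, of which 62 were tested in both systems. In tumours 1 was higher and 54 lower (of all genes, 21.5% and 31.3%), in LAP tet-Myc/YAP 1 and 29 (22.5% and 14%), and in LAP tet-YAP 0 and 28 (11.5% and 15.3%). In R26 tet-Myc/YAP 1 was higher and 19 lower (4.61% and 37.6% of all genes), and in R26 tet-YAP 3 and 2 (2% and 4.19%). The median tumour difference was -1.12, against -0.14 over all genes. By adjusted p the tumour falls were led by the peroxin Pex16 (-1.82), the peroxisomal CoA hydrolase Nudt7 (-2.54), the monoglyceride lipase Mgll (-2.94) and the racemase Amacr (-1.83). In R26 tet-YAP the highest ranked was the carnitine transporter Slc22a5 (0.88), followed by Hsdl2 (0.58), Nudt7 (-0.62) and Slc27a1 (0.53).

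Several marker lists moved with these results, and their part in them was not tested. Of 12 hepatocyte markers, 12 were lower in tumours, 7 in LAP tet-Myc/YAP and 7 in LAP tet-YAP, where 31.3%, 14% and 15.3% of all genes were lower, and their summed level was 392 to 553 RPKM in LAP WT, 266 to 374 in tet-YAP, 239 to 309 in tet-Myc/YAP and 132 to 255 in tumours. Their median tumour difference was -1.06, beside -1.04 for the mitochondrial and -2.21 for the peroxisomal genes. Summed cholangiocyte markers were 8.83 to 12.2 RPKM in LAP WT and 41.4 to 89.9 in tumours, and neutrophil markers 0.496 to 4.89 and 6.88 to 60.2, while 0 of 8 lymphocyte markers passed the filter. In R26 tet-YAP, 3 of 12 hepatocyte and 1 of 8 stellate cell markers were lower, 1 adipocyte (Cidec) and 1 of 8 endothelial markers were higher, and 0 macrophage, cholangiocyte, neutrophil or erythroid markers were called, against 2% of all genes higher and 4.19% lower. Of 11 lipogenic genes of the fed state, 8 were lower in R26 tet-YAP, with a summed level of 104 to 139.8 RPKM against 226 to 262 in WT, and 11 in tumours (4.19% and 31.3% of all genes). Of 11 clock genes, 2 were higher and 6 lower in tumours (21.5% and 31.3% of all genes), the clock output Dbp at 16.5 RPKM in LAP WT and 2.01 in tumours, and at 1.396 in R26 WT and 5.30 in R26 tet-YAP. Feeding state and time of sampling are not given in the labels.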

How the data were processed

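Total liver RNA was sequenced after library preparation without the poly-T selection step, per the labels. Alignment with TopHat2 (2.0.8) and SAMtools to build mm9, gene counting with featureCounts (1.4.5-p1) and use of DESeq2 are credited to the submitters' processing notes. The authors deposited RPKM values in 1 table per system, normalized separately, so no test crosses the systems. Duplicate removal and strand use are not given in the sources used here. The deposited columns of the authors' own comparisons (fold changes and p-values) were not used, and 0 columns of per-sample values were left over. Columns name groups only, so a library number is its place among the columns of its group. Rows with a date in place of a symbol (27 per system) were left out.

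Differences were computed with limma (3.58.1, R 4.3.3; lmFit, eBayes with trend, two-sided, Benjamini-Hochberg over all tested genes) on log2(RPKM + 0.5), for genes of at least 1 RPKM in at least 3 libraries, with all libraries of a system in 1 fit. The fit was tested on simulated data in which libraries were independent, with no close pairs and no ceiling. That test cannot show how either affects the calls here. Depth was recovered from single-read steps: of 15047 low values, 99.5% lay within 0.12 of a whole read, which gave 23680000 to 56810000 reads as denominators. Intervals from depth cover counting error only, and none are printed. The members and lists were chosen with earlier results of these data known. Values per library are given for Ppara, Ppargc1a and the members called in at least 1 comparison with WT and among its 8 largest differences, and up to 4 further pathway genes per comparison by adjusted p. Alternatives were pseudocounts of 0.1 and 1, no filter, median-ratio and quantile scaling, a fit of the compared groups alone, the sex pattern as a covariate, libraries of 1 pattern only, averaged close pairs, leaving out each library, and a common ceiling, the last, and the averaging in LAP, being chosen after seeing the data.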

Additional observations from a re-analysis of the deposited data

Results flagged for a closer look

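In 17 of 185 gene and group combinations of 4 to 8 libraries, the gap from 1 library to the next was a large part of its group's range. The cut gives about 1 in 20 for independent normal values. With close pairs, a ceiling and related genes that rate need not hold here, so no excess is read from the count. Some gaps were small, as for Angptl4 in R26 WT, at 24.4 RPKM against 25.4 to 25.6. In LAP tet-YAP, library 1 stood high for Decr1 (14.7 RPKM), Etfdh (6.92), Angptl4 (24.9), Fabp1 (25.6) and Cd36 (17.2), and library 4 for Ppargc1a (2.48). Among the tumours, library 4 stood high for Acadm (20.8 RPKM) and Acadl (13.3), library 3 for Fgf21 (7.36) and Acot3 (8.08), and library 8 low for Acads (6.53) and Acaa1a (5.84). In R26 tet-YAP, library 4 stood high for Acaa2 (35.3 RPKM) and Fabp1 (39.7). In R26 tet-Myc, library 2 stood apart for Cpt1a (14.8 RPKM) and Pdk4 (7.16), and in R26 WT library 2 for Angptl4 (24.4). LAP tet-YAP 1, tumour 4 and R26 tet-YAP 4 were the shallowest of their groups (RPKM denominators of 34650000, 41160000 and 25210000 reads). The other flagged libraries (LAP tet-YAP 4, tumours 3 and 8, R26 tet-Myc 2 and R26 WT 2) were not. The part of depth in these flags was not tested.

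The interaction of both transgenes was past the limma threshold for 6 members. In R26 it was -1.87 for Cyp4a14, -1.40 for Acot1, -1.30 for Acot4 and -0.91 for Pex11a, and in LAP 1.02 for Crat and -1.40 for Cd36. None of the 6 calls was kept in every alternative setting.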

How the results depend on the processing

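Of 120 counts of called members under settings other than leaving out a library, 94 lay within 1.5 times the reported count. Of 1580 values of called genes, Ppara and Ppargc1a, 259 lost the call, 2 gained one, and 7 changed sign with a call on at least 1 of the 2 sides. Those 7 were in R26 tet-Myc/YAP after quantile normalization (Ppara 0.51, Acadvl 0.035, Acaa1a 0.036, Creb3l3 0.00131), and in tumours for Acadm (0.079 after quantile normalization, 0.00758 at a common ceiling) and Crat (0.13 at a common ceiling). Leaving aside female-pattern fits with 1 library in a compared group, calls kept in every such setting numbered 0 of 3 in R26 tet-Myc, 0 of 12 in R26 tet-YAP, 5 of 16 in R26 tet-Myc/YAP, 2 of 17 in LAP tet-YAP (Acot2, Cd36), 15 of 26 in LAP tet-Myc/YAP and 18 of 30 in tumours. All 12 calls of R26 tet-YAP were lost with averaged close pairs, and that of Cd36 also with no filter. The causes were not tested.

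The counts that moved were these. R26 tet-Myc had 1 with no filter and 0 with only the compared groups, the sex covariate or averaged close pairs. R26 tet-YAP had 0 with averaged close pairs and R26 tet-Myc/YAP 9. R26 tet-Myc/YAP against tet-YAP had 13 in male-pattern libraries and 3 at a common ceiling. The R26 interaction had 1 under median-ratio scaling, 12 in male-pattern libraries, and 0 with averaged close pairs or at a common ceiling. LAP tet-Myc had 1 under median-ratio scaling and at a common ceiling. LAP tet-YAP had 4 after quantile normalization, 5 at a common ceiling and 5 with averaged close pairs, which also gave 2 for LAP tet-Myc/YAP against tet-YAP and 0 for the LAP interaction. Female-pattern libraries include 1 of tet-YAP and 1 of tet-Myc, so those counts rest on an arm of 1 library assumed to vary like the others: 0 for LAP tet-YAP, 3 for tumours against tet-YAP, 2 for LAP tet-Myc/YAP against tet-YAP and 0 for the LAP interaction. The LAP interaction also had 1 with no filter and with the sex covariate and 0 after quantile normalization.

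With 1 library left out, the counts ranged from 1 to 5 (R26 tet-Myc), 10 to 14 (R26 tet-YAP), 13 to 16 (R26 tet-Myc/YAP), 3 to 11 (R26 tet-Myc/YAP against tet-YAP), 2 to 10 (R26 interaction), 0 to 1 (LAP tet-Myc), 7 to 24 (LAP tet-YAP), 23 to 27 (LAP tet-Myc/YAP), 30 to 31 (tumours), 17 to 21 (tumours against tet-YAP), 1 to 13 (LAP tet-Myc/YAP against tet-YAP) and 0 to 4 (LAP interaction). LAP tet-Myc reached 1 without tet-Myc 3. No paired analysis was possible because the columns carry group names and no replicate number that the labels share across groups. Values near the ceiling limit what fold changes of abundant enzymes can show.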
